A study of Mus musculus with 6 samples.

Results

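Histone and DNA modifying enzymes write and erase the chemical marks on chromatin. The set described here holds the rows of the raw count matrix whose symbols have a fixed form. The stems Kdm and Kmt are followed by a digit and a letter, and Kat and Setd by a digit with or without a or b. Dnmt takes a digit with or without a, b or l, Hdac a number, and Sirt, Tet and Ezh a digit. The set leaves out relatives with symbols of another form, such as Setdb1. It counted 67 of 24982 rows, in 7 classes: 17 lysine demethylases (Kdm), 18 lysine methyltransferases (Kmt, Ezh and Setd), 7 lysine acetyltransferases (Kat), 11 zinc-dependent deacetylases (Hdac), 7 sirtuins (Sirt), 4 DNA methyltransferases (Dnmt) and 3 methylcytosine dioxygenases (Tet). A filter on low counts left 64 of them among 12310 tested genes. Dnmt3l, Hdac9 and Kdm4d were not tested, with at most 7 raw counts over the 3 libraries of either side. Classes follow the symbol stems alone, so a member can act on other proteins, as Setd3 of the methyltransferase class does on actin.

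Lysine methyltransferases place methyl groups on histone tails, where some, such as those of the Kmt2 (COMPASS) family, mark active promoters and enhancers, and others, such as Ezh1 and Ezh2 of Polycomb repressive complex 2, mark silenced genes. Lysine demethylases remove these groups, acetyltransferases and deacetylases add and remove acetyl groups, and the Dnmt and Tet enzymes methylate cytosine and oxidise methylcytosine. In basal epidermis, Dnmt1 and the Polycomb enzymes are known for holding back terminal differentiation, and Kdm6b for removing the Polycomb mark from differentiation genes.

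RNA came from sorted keratinocytes of mouse back skin in 6 libraries: 3 from the denervated left side and 3 from the normal right side of the same 3 animals, numbered 890, 892 and 899. All mice carried Lgr6-EGFP-Ires-CreERT2 together with the reporter allele R26loxP-stop-loxP-tdTom and received 20 µg of tamoxifen on postnatal day 42, so that the Lgr6 locus drove both GFP and the Cre that switches on tdTomato in Lgr6-expressing cells and, permanently, in their descendants. Cutaneous nerves of the left side were removed by blunt dissection, those of the right side were left in place, and cells labelled by Lgr6 and stained for Itga6 (CD49f) were taken 4 weeks later. No sham dissection of the right side is described, so effects of nerve loss, of the dissection and of the side of the body cannot be told apart. In bulk RNA, a changed number of cells of 1 type and a changed amount of RNA per cell cannot be told apart either.

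Library totals ran from 9610071 to 14021730 counts in denervated and from 13801154 to 26167593 counts in normal libraries, and the denervated library was the shallower of the pair in each animal. Keratinocyte markers summed to 44700 to 50470 CPM (counts scaled by library size) in denervated and 47320 to 49820 CPM in normal libraries, led by Krt5 and Krt14. Schwann cell and neuron markers summed to 1.14 to 1.89 CPM in denervated and 1.96 to 3.33 CPM in normal libraries, the lowest exact two-sided permutation p among 8 marker lists (p = 0.1, the smallest that 3 against 3 libraries can give, adjusted p = 0.4). Sox10, the defining Schwann cell marker, was at or below 0.0483 CPM in every library. Fibroblast markers summed to 1.04 to 1.78 CPM in denervated and 1.64 to 4.68 CPM in normal libraries, and immune markers to 83.1 to 105 CPM and 65.3 to 103 CPM. Markers of suprabasal keratinocytes summed to 7008 to 9042 CPM in denervated and 8878 to 9147 CPM in normal libraries. The part of depth and of these marker levels in the results was not tested.

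The sorted cells expressed nearly the whole set. Levels of different genes are compared in TPM, transcript abundance per length. Averaged over all 6 libraries, Sirt1, an NAD-dependent deacetylase, had the highest level at 203 TPM, and Kdm6b, the demethylase of the Polycomb mark on histone H3, came next at 123.4 TPM. Setd5 (100.1 TPM), Kmt5a, the histone H4 monomethyltransferase (91.8 TPM), Kdm3a (86.9 TPM), Hdac2 (84.6 TPM) and Hdac1 (76.2 TPM) followed. The median member lay at 27.4 TPM. The lowest tested member was Tet1, at 0.242 TPM, against 52.2 TPM for Tet3 and 25.2 TPM for Tet2, so that Tet3 was the main methylcytosine dioxygenase transcript in these cells. Among the DNA methyltransferases, the maintenance enzyme Dnmt1 stood at 37.6 TPM, above the de novo enzyme Dnmt3a at 14.3 TPM. In the Polycomb pair, Ezh2 averaged 55.7 ± 3.9 TPM in denervated and 51.7 ± 7.9 TPM in normal libraries (SD, n = 3 each), and Ezh1 16.4 ± 2.2 TPM in denervated and 19.3 ± 2.1 TPM in normal libraries.

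**Figure D1:**
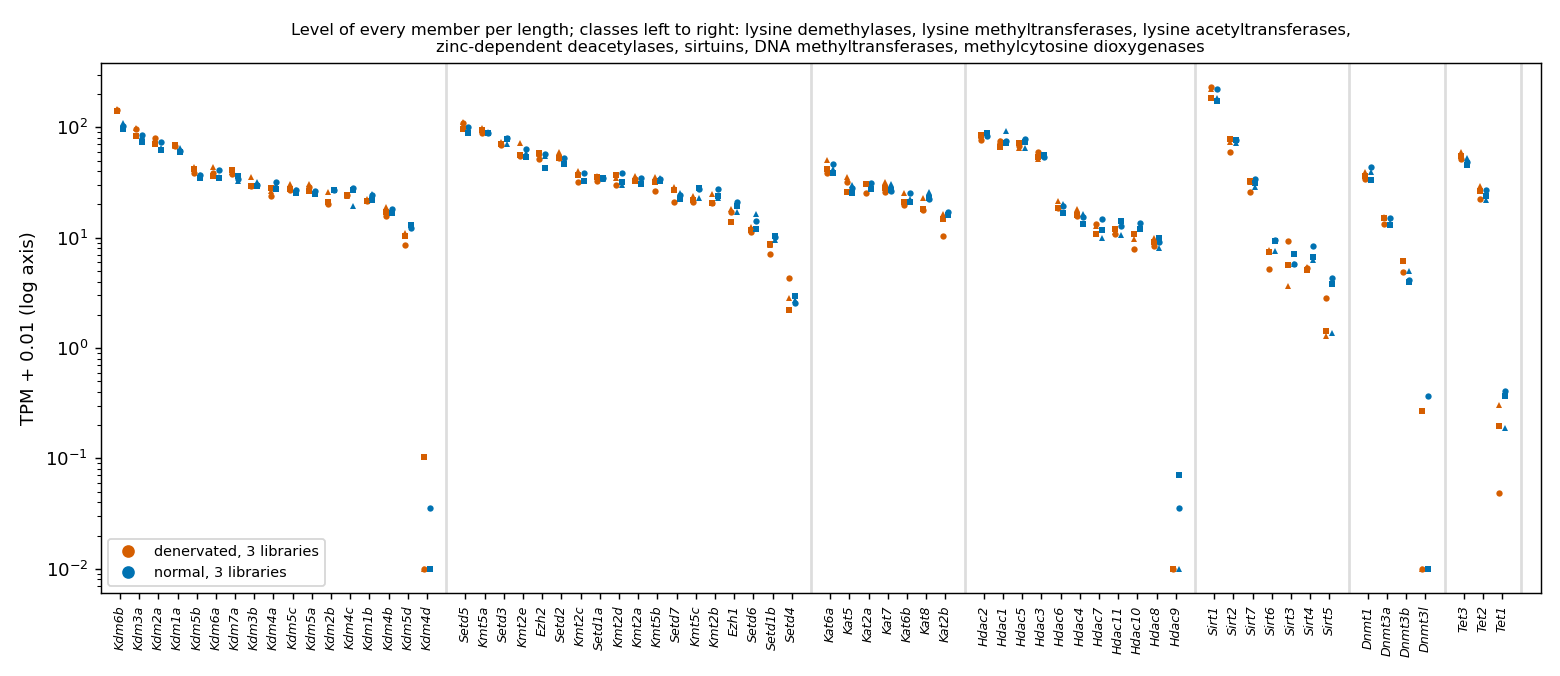
Level of each member in TPM (log axis, with a small offset so that zeros can be drawn), grouped by class, with denervated and normal libraries as separate points. Sirt1 (203 TPM on average) and Kdm6b (123.4 TPM) stand highest, and Tet1 (0.242 TPM) is the lowest of the tested members.

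Summed per class, transcripts of the 17 demethylase genes reached 703, 689 and 745 TPM in denervated libraries of animals 890, 892 and 899, against 660.2, 609.8 and 646 TPM in normal libraries. The groups did not overlap. Without Kdm6b the sums were 559.7, 549 and 597 TPM in denervated and 557, 514 and 535 TPM in normal libraries, and the groups overlapped. Deacetylase (Hdac) transcripts summed to 357 ± 3.2 TPM in denervated and 375 ± 4.8 TPM in normal libraries, also without overlap. Without Hdac1, a sum added after its values were seen, they reached 280.6, 288 and 284 TPM in denervated and 301.2, 297 and 287 TPM in normal libraries, and the groups overlapped. Sums of the other 5 classes overlapped, at 724 ± 48 TPM in denervated and 709 ± 38 TPM in normal libraries for methyltransferases and 334 ± 17 TPM against 325 ± 29 TPM for sirtuins. On log2(TPM + 1), the median gene of all those averaging at least 1 TPM was also lower on the denervated side, at a log2 fold change of −0.04. How often sums over other sets of genes do not overlap was not tested.

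Denervated was then compared with normal by edgeR's quasi-likelihood test with the animal as a block, and a gene was called at a Benjamini-Hochberg adjusted p below 0.05 over all tested genes. Of the 64 tested members, 1 was called, Kdm6b, which was higher on the denervated side. Over all tested genes the test called 3.46%, with 2.88% higher and 0.577% lower. The members' share of 1.56% rests on 1 gene, too few to set it apart from the background. The split of all calls was 355 higher and 71 lower, and with counts scaled to library totals 172 higher and 118 lower. At an unadjusted p below 0.05, 13 members were higher and 6 lower, 19 in all against 18.2% of all tested genes (20.3% and 9.38% of the members, against 10.4% and 7.86% of all tested genes). Levels of the 2 sides did not overlap for 23 members (19.0% of all tested genes), 15 higher and 8 lower, or 23.4% and 12.5%, against 9.76% and 9.21% of all tested genes. The median log2 fold change was 0.04 over the members and −0.02 over all tested genes, with 34 members positive and 30 negative. With library totals these medians were −0.02 and −0.09, and without animal 899 the members' median was 0.00196. By animal, the members' median difference was −0.08 in 890, 0.05 in 892 and 0.08 in 899. DESeq2 with the same block called 3 members, Kdm6b, Kdm2a and Kdm3a, against 7.91% of the 6236 genes to which it gave an adjusted p, and left 12 tested members, mostly of low level, without one. Limma on log2(TPM + 1) with the block called no member and only 1 of 11866 genes, so its lack of calls says little about the members. Without the block, edgeR called no member and no gene, with 12.5% of all tested genes at an unadjusted p below 0.05.

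**Figure D2:**
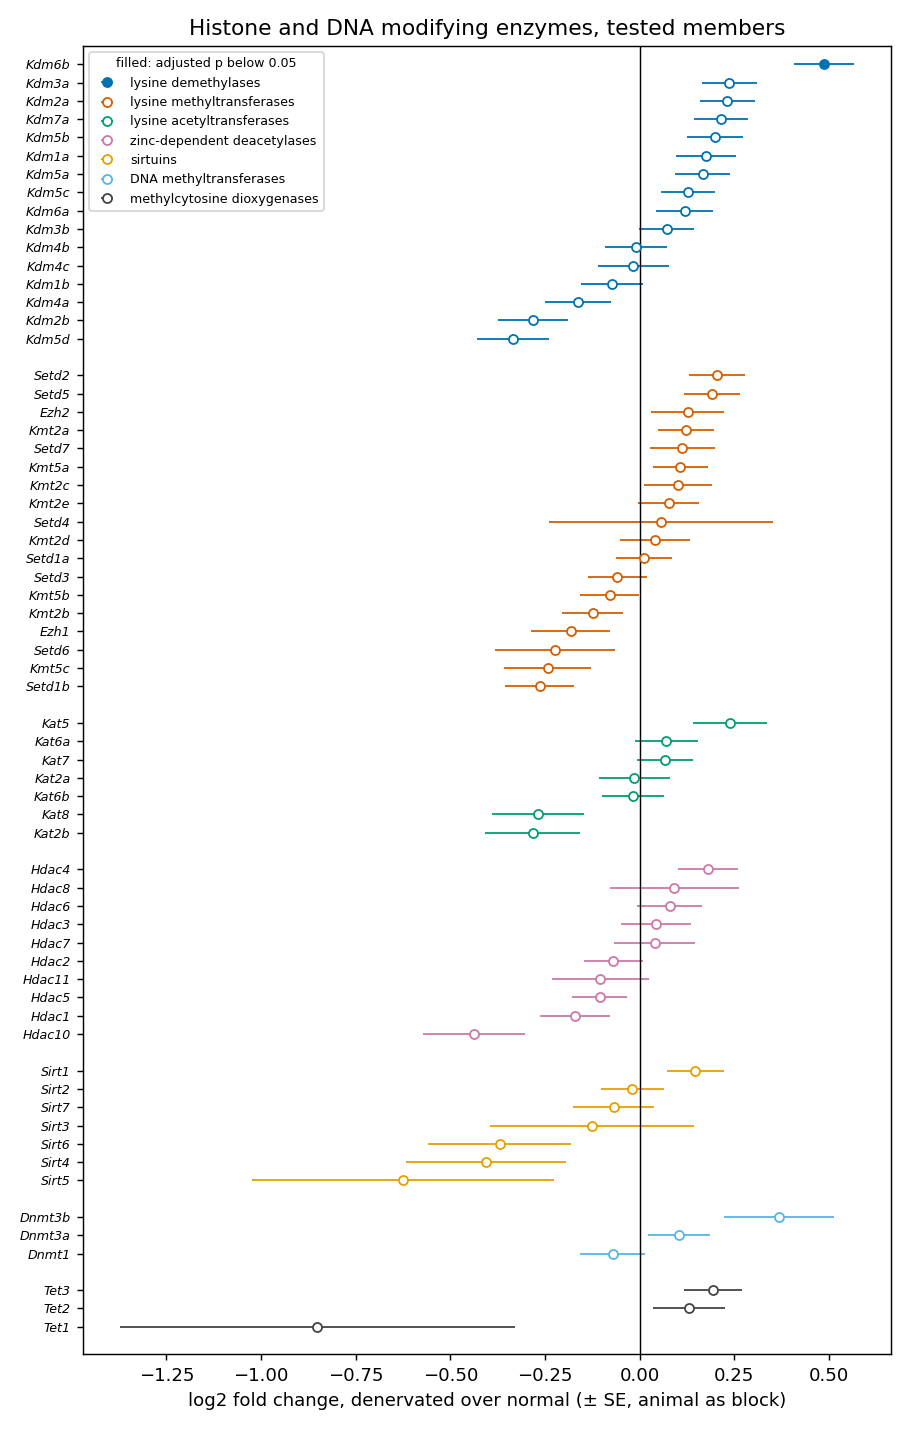
Log2 fold change of denervated over normal for the 64 tested members by class (edgeR with the animal as a block, bars are ± SE, filled point for an adjusted p below 0.05). Kdm6b (0.49 ± 0.08) is the filled point, the demethylases lie mostly to the right of 0, and the sirtuins mostly to its left.

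Kdm6b rose 1.40-fold in denervated cells, and lysine demethylases made up 9 of the 19 members with an unadjusted p below 0.05. Of the 16 tested Kdm genes, 10 were higher in all 3 animals and 3 lower in all 3 (19.3% and 21.4% of all tested genes, 40.7% together). Without overlap, 8 lay above and 2 below the normal libraries, against 9.76% and 9.21% of all tested genes. The class had a median log2 fold change of 0.12, with 0.10, 0.11 and 0.14 in animals 890, 892 and 899. At an unadjusted p below 0.05, 7 were higher and 2 lower, against 10.4% and 7.86% of all tested genes.

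Kdm6b (chromosome 11, 69398508 to 69413675, minus strand, GRCm38 in the GENCODE annotation) had 639.9, 618 and 608 CPM in denervated libraries of animals 890, 892 and 899, against 438, 428 and 467 CPM in the normal libraries of the same animals. All 3 denervated libraries lay above all 3 normal ones. The log2 fold change was 0.49 ± 0.08 (SE), with differences of 0.55, 0.53 and 0.38 in the 3 animals and an adjusted p of 0.00879 by edgeR with the block. Without the block the adjusted p was 0.137 at the same fold change, and limma on log2(TPM + 1) with the block gave 0.0881. With the block and any 1 animal left out, edgeR still called it, at log2 fold changes of 0.46, 0.48 and 0.54 without 890, 892 and 899. In the authors' deposited table, Kdm6b had a log2 fold change of 0.51 and an adjusted p of 7.88e-08. An antisense gene, Kdm6bos, overlaps Kdm6b in the annotation, and the strand setting of the counting is not given in the sources used here. Kdm6a, the X-linked enzyme with the same substrate, had 135, 121 and 136 CPM in denervated and 130.4, 113 and 116 CPM in normal libraries. Its values overlapped, and its log2 fold change of 0.12 ± 0.08 was not called (adjusted p = 0.429, edgeR).

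**Figure D3:**
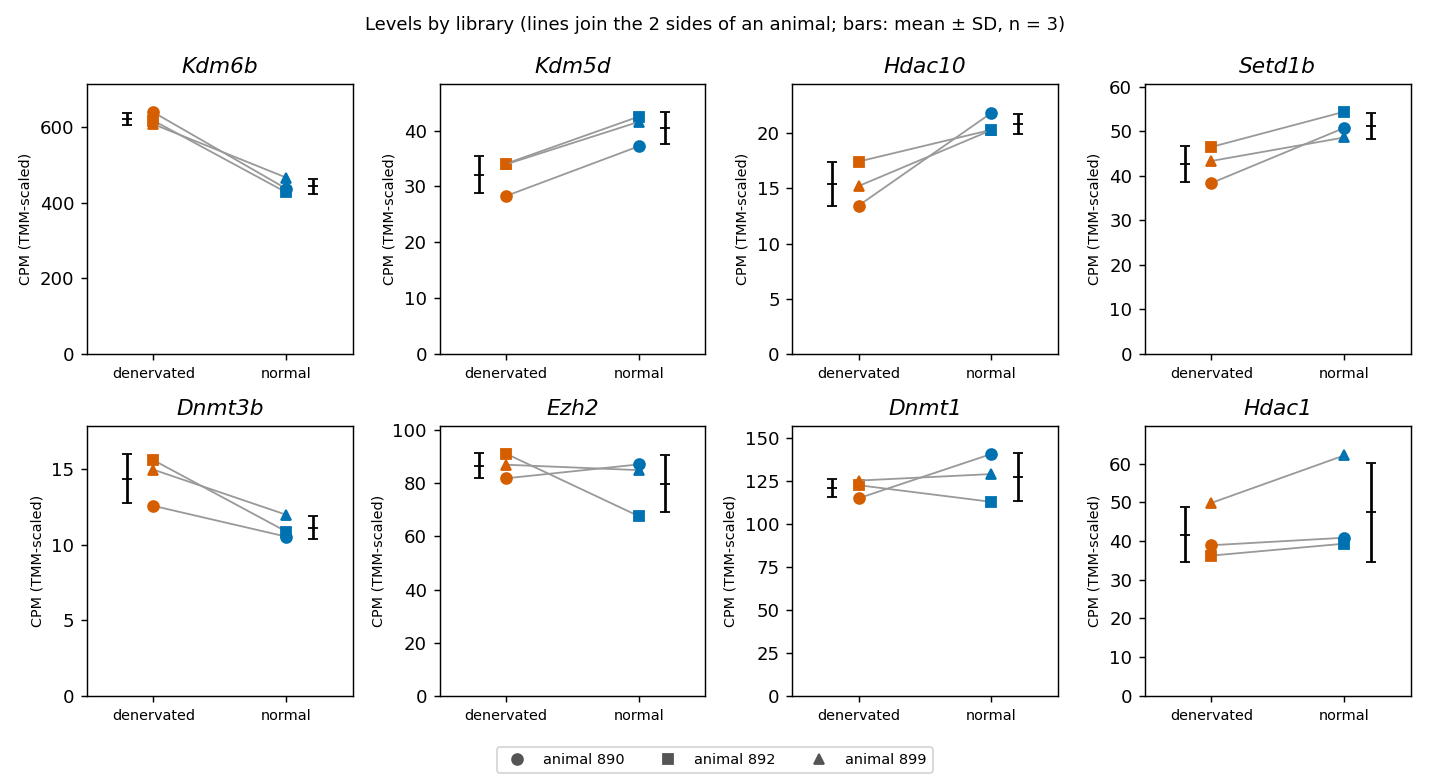
TMM-scaled CPM of 8 members in each library, denervated on the left and normal on the right of each panel, with a line joining the 2 sides of an animal and bars for the mean ± SD (n = 3). Kdm6b lies higher on the denervated side in all 3 animals, Kdm5d, Hdac10 and Setd1b lie lower, and the lines of Ezh2 and Dnmt1 cross.

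The other demethylases are given as members of their class, whatever their change. Kdm3a, which removes mono- and dimethyl marks of silent chromatin, had 289.7, 247 and 274 CPM in denervated and 240.1, 210.2 and 238 CPM in normal libraries. The groups did not overlap, and the log2 fold change of 0.24 ± 0.07 had an adjusted p of 0.0928 by edgeR and was called in the authors' deposited table (0.24, adjusted p = 0.0491). Kdm2a, which acts on histone H3 at CpG islands, had 351, 304 and 315 CPM in denervated and 295, 262 and 269 CPM in normal libraries, again without overlap. Its log2 fold change was 0.23 ± 0.07 with an adjusted p of 0.103 by edgeR, and 0.23 with an adjusted p of 0.0452 in the authors' deposited table. Its close relative Kdm2b, a partner of a variant Polycomb complex, had 35.1, 42.4 and 45.1 CPM in denervated and 47.4, 50.8 and 50.2 CPM in normal libraries. Kdm2b thus lay lower without overlap, at a log2 fold change of −0.28 ± 0.09 (adjusted p = 0.119). Its estimated counts were 1.43 times its raw counts, so how its reads were assigned differed between the 2 deposited sets of values.

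Kdm7a, which removes repressive methyl marks from histone H3 (0.22 ± 0.07, adjusted p = 0.124) and Kdm1a, the flavin-dependent enzyme of the CoREST complex (0.18 ± 0.08, adjusted p = 0.262), were higher without overlap and not called by edgeR. Kdm1b, the second flavin-dependent enzyme, and the Kdm4 enzymes Kdm4a, Kdm4b and Kdm4c, which act on trimethylated histone H3, had log2 fold changes between −0.16 and −0.01, with overlapping levels. Kdm3b, a relative of Kdm3a, stood at 0.07 ± 0.07.

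The Kdm5 enzymes, which remove the methyl mark of active promoters, differed in sign. Kdm5a (0.17 ± 0.07, adjusted p = 0.242), Kdm5b (0.20 ± 0.07, adjusted p = 0.165) and the X-linked Kdm5c (0.13 ± 0.07, adjusted p = 0.366) lay higher without overlap, and their Y-linked relative Kdm5d lay lower without overlap. None of the 4 was called by edgeR with the block. Kdm5d (chromosome Y, 897788 to 956786, plus strand) had 28.3, 34.1 and 34.0 CPM in denervated and 37.2, 42.5 and 41.6 CPM in normal libraries. Its log2 fold change of −0.33 ± 0.09 had an adjusted p of 0.0713, with differences of −0.39, −0.32 and −0.29 in the 3 animals. It was called when counts were scaled to library totals (−0.40, adjusted p = 0.0483), without the filter on low counts (−0.33, adjusted p = 0.0395) and with a length offset (−0.36, adjusted p = 0.0426), and not called without the block (adjusted p = 0.272) or in the authors' deposited table (adjusted p = 0.189).

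The other Y-linked genes read beside it, all outside the enzyme set, had overlapping levels. Ddx3y, an RNA helicase, had 250.3, 195 and 214 CPM in denervated and 190.2, 186 and 204 CPM in normal libraries, at a log2 fold change of 0.18 ± 0.08 (adjusted p = 0.275). Eif2s3y, a translation initiation factor subunit, stood at 0.01 ± 0.07 and Uty, the Y-linked relative of Kdm6a, at 0.05 ± 0.08, both with overlapping levels. Differences between these genes were not tested. Xist, the RNA of the inactive X chromosome, reached at most 0.0765 CPM in denervated and 0.0751 CPM in normal libraries.

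**Figure D4:**
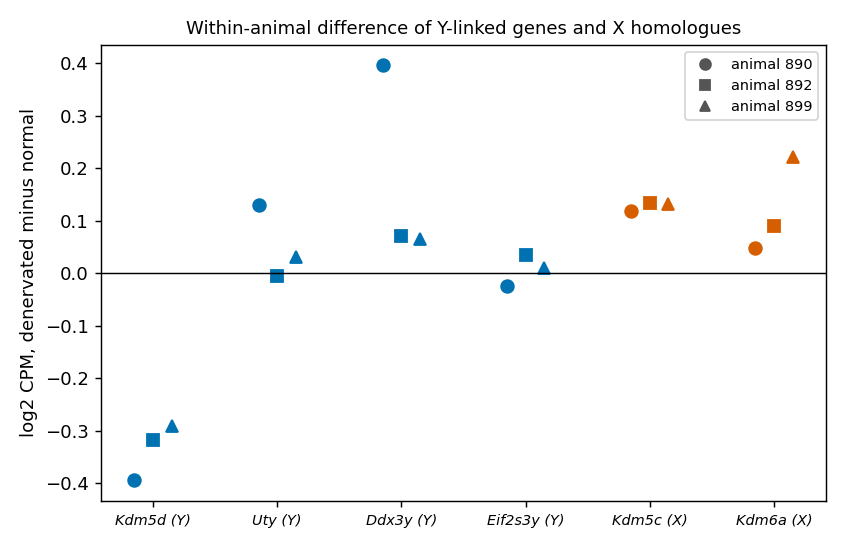
Difference in log2 CPM, denervated minus normal, within each of 3 animals (marker shapes) for Kdm5d and 3 other Y-linked genes (blue) and the X-linked Kdm5c and Kdm6a (orange), with a line at 0. Kdm5d lies at −0.39, −0.32 and −0.29, and the Ddx3y points at 0.40, 0.07 and 0.06.

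The promoters of Kdm5d and Kdm5c are shown because these X and Y relatives had log2 fold changes of opposite sign. Each covers 250 bases before to 50 after the start (RefSeq, GRCm38.p6), at chrY:897538-897837 and chrX:152232977-152233276, both on the plus strand and written 5′ to 3′. Capitals mark a match to the core of the YY1 motif, AANATGGC, searched on both strands.
Kdm5d: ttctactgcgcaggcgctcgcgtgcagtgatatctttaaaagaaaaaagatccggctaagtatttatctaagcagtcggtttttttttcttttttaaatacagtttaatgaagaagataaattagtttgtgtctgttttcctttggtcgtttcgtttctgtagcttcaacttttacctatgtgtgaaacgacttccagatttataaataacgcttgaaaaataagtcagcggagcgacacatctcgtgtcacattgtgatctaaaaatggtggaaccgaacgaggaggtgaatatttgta
Kdm5c: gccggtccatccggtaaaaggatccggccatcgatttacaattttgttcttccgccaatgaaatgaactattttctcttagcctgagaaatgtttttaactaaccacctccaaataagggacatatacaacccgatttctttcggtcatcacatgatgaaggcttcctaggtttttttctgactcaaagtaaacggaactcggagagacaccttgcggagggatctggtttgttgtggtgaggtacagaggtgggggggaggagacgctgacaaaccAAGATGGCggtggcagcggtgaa
The Kdm5d window held 15 CpG dinucleotides at a GC content of 36.7% and no match to these letters, and the Kdm5c window 13 CpG at 47.0% and 1 match. RefSeq promoters were found for 55 members, 81 windows in all. None was found for the called Kdm6b, or for Kdm2a, Setd1b and Hdac10, and the windows include those of the untested Dnmt3l, Hdac9 and Kdm4d. The YY1 core occurred in 4.94% of the members' windows (4 windows), 8.35% of those of all tested genes and 6.05% of all promoters. The GC box GGGCGG, searched on both strands, occurred in 61.7%, 63.0% and 35.7% of the same 3 sets. The AP-1 site TGANTCA occurred in 9.88% (8 windows), 5.31% and 7.81% of them, and the E-box CACGTG in 8.64% (7 windows), 9.998% and 7.15%, each on both strands. Members had a median CpG observed over expected ratio of 0.796, against 0.754 for tested genes and 0.384 for all promoters.

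Among 18 lysine methyltransferases none was called by edgeR, by limma or, among the 16 with an adjusted p, by DESeq2, all with the block. At an unadjusted p below 0.05 edgeR had 2 higher and 1 lower, against 10.4% and 7.86% of all tested genes. The median log2 fold change was 0.05, with −0.09, 0.07 and 0.08 in animals 890, 892 and 899. Setd5 had 446, 393 and 427 CPM in denervated and 389, 349.6 and 369 CPM in normal libraries, without overlap (0.19 ± 0.07, adjusted p = 0.186). Setd2, the enzyme that trimethylates histone H3 along transcribed genes, had 266, 258 and 275 CPM in denervated and 244, 222 and 227 CPM in normal libraries. It too lay higher without overlap (0.20 ± 0.07, adjusted p = 0.155). Setd1b, a catalytic subunit of a COMPASS complex (chromosome 5, 123142193 to 123168629, plus strand), had 38.4, 46.5 and 43.4 CPM in denervated and 50.8, 54.4 and 48.7 CPM in normal libraries. These levels did not overlap, and the log2 fold change of −0.26 ± 0.09 was not called (adjusted p = 0.132), except with a length offset (−0.32, adjusted p = 0.0494). Its relative Setd1a stood at 0.01 ± 0.07.

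The Polycomb enzymes did not pass the test. Ezh2 had 81.9, 91.1 and 87.0 CPM in denervated and 87.1, 67.6 and 84.9 CPM in normal libraries, with overlap. Its log2 fold change of 0.13 ± 0.10 (adjusted p = 0.527) came mostly from animal 892, without which it was −0.01. Ezh1 stood at −0.18 ± 0.10 (adjusted p = 0.385) and was lower in 2 of 3 animals. The Kmt2 enzymes, the large catalytic subunits of COMPASS complexes and the related Kmt2e, ran from −0.12 for Kmt2b to 0.12 for Kmt2a. Kmt2a had 351, 342 and 352 CPM in denervated and 337, 308 and 315 CPM in normal libraries, without overlap (0.12 ± 0.07, adjusted p = 0.414). Kmt5a also lay higher without overlap (0.11 ± 0.07, adjusted p = 0.464), and Setd6, a methyltransferase of the NF-kappaB subunit RelA, lower without overlap (−0.22 ± 0.16, adjusted p = 0.491). Setd3, Setd4, Setd7 and Kmt5b had log2 fold changes from −0.08 to 0.11 with overlapping levels. Kmt5c, which trimethylates histone H4 in heterochromatin, stood at −0.24 ± 0.12 (adjusted p = 0.283), and was called by edgeR when animal 899 was left out.

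Of the 7 acetyltransferases none was called by edgeR, by limma or by DESeq2, which gave Kat8 no adjusted p. By edgeR 1 was higher and 2 lower at an unadjusted p below 0.05, against 10.4% and 7.86% of all tested genes. Kat5, the catalytic subunit of the Tip60 complex, had 39.3, 30.9 and 39.2 CPM in denervated and 31.8, 28.5 and 31.9 CPM in normal libraries. It was higher in 3 of 3 animals with overlapping ranges (0.24 ± 0.10, adjusted p = 0.214). Kat2b, of the SAGA and ATAC type of complexes, had 19.4, 30.3 and 30.8 CPM in denervated and 31.4, 32.5 and 32.9 CPM in normal libraries. The denervated library of animal 890 stood lowest, at a difference of −0.70 against −0.10 and −0.09 in the other animals (−0.28 ± 0.13, adjusted p = 0.251). Kat8, of the MSL and NSL complexes, was also lower without overlap (−0.27 ± 0.12, adjusted p = 0.260). Kat6a, the most abundant acetyltransferase transcript at 43.1 TPM, stood at 0.07 ± 0.08. Kat7, of the HBO1 complex, also stood at 0.07 ± 0.07, and Kat2a and Kat6b at −0.01 ± 0.09 and −0.02 ± 0.08.

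None of the 10 tested zinc-dependent deacetylases was called by edgeR, by limma or by DESeq2, which gave Hdac8, Hdac10 and Hdac11 no adjusted p. By edgeR 1 was higher and 1 lower at an unadjusted p below 0.05, against 10.4% and 7.86% of all tested genes. The median log2 fold change was −0.01. The class I enzymes Hdac1, Hdac2 and Hdac3 are the catalytic subunits of the NuRD, CoREST, Sin3 and NCoR corepressors. Hdac1 had 38.9, 36.3 and 49.9 CPM in denervated and 40.9, 39.3 and 62.2 CPM in normal libraries, highest in animal 899 on both sides. It was lower in 3 of 3 animals with overlapping ranges (−0.17 ± 0.09, adjusted p = 0.352), and its estimated counts were 1.83 times its raw counts. Hdac2 stood at −0.07 ± 0.08 and Hdac3 at 0.04 ± 0.09, with a sign that turned negative (−0.02) when counts were scaled to library totals.

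Hdac10, a class IIb enzyme known as a polyamine deacetylase (chromosome 15, 89123307 to 89128700, minus strand), had 13.5, 17.4 and 15.2 CPM in denervated and 21.9, 20.3 and 20.3 CPM in normal libraries. The groups did not overlap. The log2 fold change of −0.44 ± 0.13 had an adjusted p of 0.0937, and 0.0322 without the filter on low counts. Hdac4, a class IIa enzyme with signal-dependent nuclear entry, had 78.4, 81.2 and 87.1 CPM in denervated and 73.0, 66.7 and 78.3 CPM in normal libraries, higher in each animal (0.18 ± 0.08, adjusted p = 0.246). Hdac5, its class IIa relative, had 173, 179.6 and 156 CPM in denervated and 194, 190.2 and 163 CPM in normal libraries, lower in each animal with overlapping ranges (−0.11 ± 0.07, adjusted p = 0.477). Hdac6, Hdac7, Hdac8 and Hdac11 had log2 fold changes from −0.10 to 0.09 with overlapping levels.

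Sirtuins were lower in point estimate in 6 of 7 genes, against 6731 of all 12310 tested genes. None was called by edgeR or limma or reached an unadjusted p below 0.05 by edgeR. DESeq2 called none of Sirt1, Sirt2 and Sirt7 and gave the other 4 no adjusted p. The exception in sign was Sirt1, the most abundant of them, with 433, 342 and 388 CPM in denervated and 391, 321 and 337 CPM in normal libraries. Sirt1 was higher in 3 of 3 animals with overlapping ranges (0.15 ± 0.08, adjusted p = 0.323). Sirt6, a nuclear enzyme of telomeric and glycolytic gene chromatin, had 5.59, 7.92 and 7.42 CPM in denervated and 9.35, 10.2 and 7.50 CPM in normal libraries, at −0.37 ± 0.19 (adjusted p = 0.323). The mitochondrial Sirt4 was lower without overlap (−0.41 ± 0.21, adjusted p = 0.330). Sirt5, also mitochondrial, rested on 49 raw counts on the denervated and 155 on the normal side, and its −0.63 ± 0.40 was not called (adjusted p = 0.436), with differences of −0.56, −1.19 and 0.18 in the 3 animals. Sirt2, Sirt3 and Sirt7 had log2 fold changes from −0.13 to −0.02 with overlapping levels. With a length offset, 2 of the 7 sirtuins were positive.

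The DNA methylation enzymes were not called by edgeR or by DESeq2, which gave Dnmt3b and Tet1 no adjusted p, or by limma, whose minimum level left out Tet1, with Dnmt3b and Tet3 higher at an unadjusted p below 0.05 by edgeR. Dnmt3b, a de novo methyltransferase, had 12.6, 15.6 and 14.99 CPM in denervated and 10.6, 10.9 and 12.0 CPM in normal libraries. Its levels did not overlap, and the log2 fold change was 0.37 ± 0.15 (adjusted p = 0.191). Dnmt1 had 115, 122.7 and 125 CPM in denervated and 141, 113 and 129 CPM in normal libraries, higher in animal 892 and lower in the other 2. Its log2 fold change of −0.07 ± 0.09 (adjusted p = 0.713) turned to 0.04 without animal 890. Dnmt3a stood at 0.10 ± 0.08.

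Tet3 had 362, 379 and 382 CPM in denervated and 314, 315 and 353 CPM in normal libraries, without overlap (0.19 ± 0.08, adjusted p = 0.187). Tet2 stood at 0.13 ± 0.10 (adjusted p = 0.501) with overlapping levels and differences of −0.17, 0.18 and 0.38 in the 3 animals, and at 0.28 without animal 890 and 0.0098 without animal 899. Tet1 had 54 raw counts over the denervated and 164 over the normal libraries, and its denervated library of animal 890 stood at 0.323 CPM, about the floor of 3 counts. Its log2 fold change of −0.85 ± 0.52 (adjusted p = 0.416) ran from −2.85 in animal 890 to 0.64 in animal 899.

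Members differ in transcript length, and fold changes varied with length over all genes. Across 12291 tested genes with a length, the Spearman correlation of log2 fold change with transcript length was 0.152, and across the 64 members 0.419. These are descriptions across genes, which share the same 6 libraries and their depths. By animal the correlation over all genes was −0.0529 in 890, 0.169 in 892 and 0.272 in 899, and over the members 0.107, 0.493 and 0.517. In the longest quintile of all tested genes (4781 bases or more) the median log2 fold change was 0.03, and in the shortest quintile −0.06.

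Of the 64 members, 31 fell in the longest quintile (48.4%, against 20.0% of all tested genes), 22 of them with a positive log2 fold change and a median of 0.10. Over all genes of the longest quintile, 56.15% were positive. The 4 members in the shortest quintile, the sirtuins Sirt3, Sirt4 and Sirt5 and the acetyltransferase Kat8, were all negative, with a median of −0.34. Over all genes of the shortest quintile, only 36.4% were positive. Demethylases had 11 of 16 members in the longest quintile and sirtuins 0 of 7. In the longest quintile, 11 of 31 members lay higher without overlap, against 15.6% of all genes of that quintile. With an offset for transcript length in the fit, the medians were 0.01 for the members, 0.07 for the demethylases and −0.08 for the sirtuins, and −0.01 for all tested genes. The members' Spearman correlation with transcript length was 0.239 after this offset, against 0.419 before it, so the offset did not remove the trend among them. Kdm6b kept its call (0.45, adjusted p = 0.00940), and Kdm5d and Setd1b were then called lower, 3 members in all, against 4.17% of all genes called in either direction and 0.724% called lower.

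**Figure D5:**
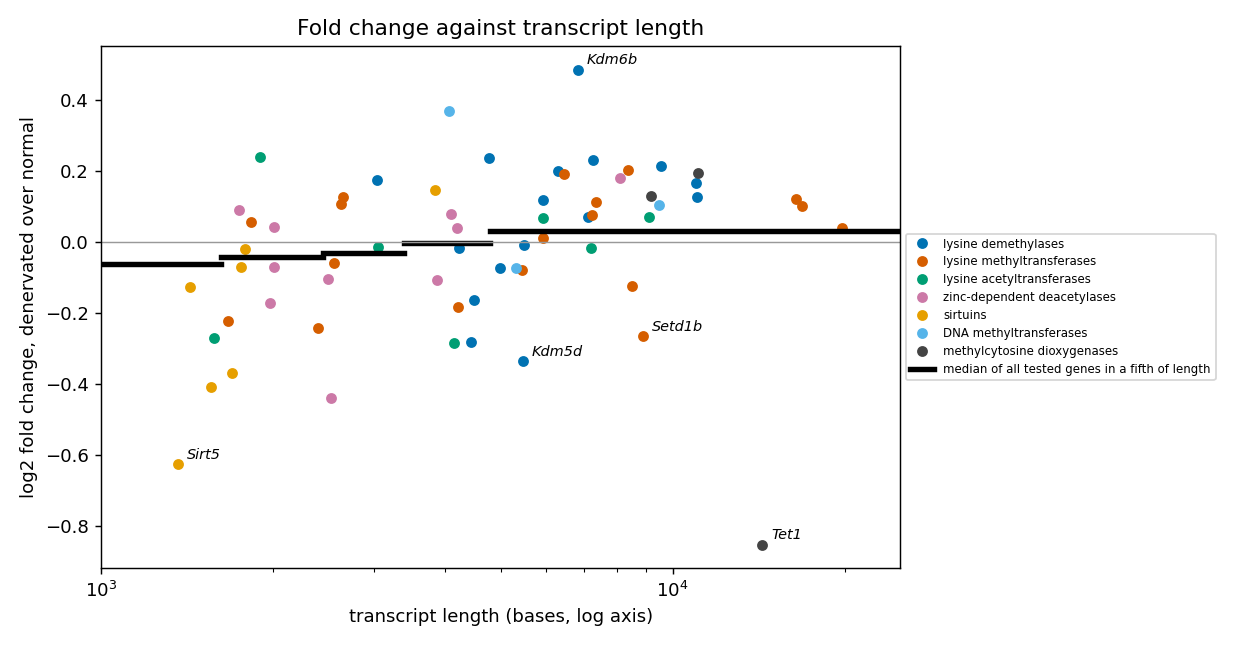
Log2 fold change of denervated over normal against transcript length (bases, log axis) for the 64 tested members, coloured by class, with black bars for the median of all tested genes in each quintile of length. The bars climb from −0.06 in the shortest to 0.03 in the longest quintile, and Kdm6b lies at 0.49, above its quintile.

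Partners and relatives of the members and 10 proliferation genes were read from 10 lists. Of the 163 tested genes of these lists, 3 were called, all higher on the denervated side. This share of 1.84%, beside 3.46% of all tested genes, rests on few genes. Of 30 Polycomb partners, 1 was called, Asxl1, a partner of the histone deubiquitinase Bap1. Asxl1 had 119, 129.6 and 131 CPM in denervated and 102, 89.8 and 110.4 CPM in normal libraries, without overlap (0.34 ± 0.08, adjusted p = 0.0402). Of 27 subunits of the NuRD, CoREST, Sin3 and NCoR corepressors, 1 was called, Arid4b of the Sin3 complex. Arid4b had 251, 218 and 237 CPM in denervated and 188, 169 and 199.5 CPM in normal libraries, without overlap (0.34 ± 0.07, adjusted p = 0.0247). Of 12 demethylases and oxygenases with other names, 1 was called, Jmjd1c, a relative of Kdm3a. Jmjd1c had 454, 439 and 400.1 CPM in denervated and 351, 323 and 343 CPM in normal libraries, without overlap (0.35 ± 0.08, adjusted p = 0.0303). Without the block, where edgeR called no gene, the adjusted p of Asxl1, Arid4b and Jmjd1c was 0.199, 0.181 and 0.166. With library totals it was 0.0852, 0.0547 and 0.0617. These calls thus depend on the scaling and, like all calls of this fit, on the pairing. With the block, all 3 were called by DESeq2 (adjusted p = 0.0169, 0.00203 and 0.000828). EdgeR also called them with a length offset (0.0452, 0.0333 and 0.0474) and with estimated counts (0.0415, 0.0244 and 0.0242).

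The other lists had no call by edgeR with the block. At an unadjusted p below 0.05, the 10 lists together had 12.3% of genes higher and 6.13% lower, against 10.4% and 7.86% of all tested genes. Histone methyltransferases with other names had 4 of 16 higher and 1 lower at an unadjusted p below 0.05, with Nsd3 (0.29 ± 0.07, adjusted p = 0.0516) and Dot1l (0.27 ± 0.07, adjusted p = 0.0599) nearest to the threshold. Nsd3 methylates histone H3 near transcribed genes, and Dot1l the globular domain of histone H3. Acetyltransferases with other names had 1 of 12 at an unadjusted p below 0.05, the coactivator Crebbp (0.33 ± 0.09, adjusted p = 0.0748), whose difference was 0.01 in animal 890 and 0.46 and 0.50 in animals 892 and 899. Acetyltransferase complex partners had 3 of 22 higher and 1 lower at that p, among them Ing3 of the Tip60 complex (0.33 ± 0.11, adjusted p = 0.101). COMPASS partners had 0 of 13 higher and 1 lower, Pagr1a (−0.36 ± 0.14, adjusted p = 0.168).

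Arginine methyltransferases had 1 of 8 higher and 3 lower at an unadjusted p below 0.05 (10.4% and 7.86% of all tested genes), with Prmt9 at −0.40 ± 0.16 (adjusted p = 0.186). DNA methylation partners had 1 of 13 higher, the stress-induced Gadd45a (0.42 ± 0.13, adjusted p = 0.0866), and 1 lower, the glycosylase Mbd4 (−0.51 ± 0.23, adjusted p = 0.269). Gadd45a stood at 138 CPM in the denervated library of animal 890 and at 81.4 and 83.5 CPM in the other denervated libraries, against 70.7 to 76.6 CPM in normal libraries. Of 10 proliferation genes none had an unadjusted p below 0.05, and Mki67, a marker of cycling cells, stood at 0.18 ± 0.10 (adjusted p = 0.341), higher in 2 of 3 animals.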

How the data were processed

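The members, gene lists and tests were chosen with earlier results of these data known. Whole-number counts per gene were deposited by the authors as a raw matrix. The deposited per-sample files hold transcript lengths, TPM and estimated counts (expected counts, rounded here to whole numbers for 1 alternative), per the file headers, and the authors also deposited 1 TPM table of the 6 libraries. The authors' comparison was deposited as log2 fold changes with p-values. STAR 2.6.1a, Salmon 0.11.2 and mm10 are named in the submitters' processing notes without roles. Which tool counted, with which annotation and strand setting, is not given in the sources used here.

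EdgeR 4.0.16 (R 4.3.3) fitted all 6 libraries with TMM factors, filterByExpr (minimum count 10, minimum total 15) and the animal as a block. The labels' protocols say that both sides came from the same mouse. Deviations from the group means correlated at 0.356, 0.361 and 0.443 for same-animal pairs and from −0.278 to −0.0407 for the others. Such deviations cancel out over the 3 libraries of a side, so the negative values are not independent of the positive ones. P-values were adjusted by Benjamini-Hochberg over all 12310 tested genes. Libraries of a side differed by more than counting noise (chi-square per degree of freedom 12.8 to 18.9), so none was a duplicate. With the animal as a block, p-values cover how the difference between the sides varied among these 3 animals, not the spread of levels between animals.

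Alternatives were the fit without the block, other scalings and filters, DESeq2 1.42.0, limma 3.58.1 on log2(TPM + 1) where TPM averaged at least 1, estimated counts, a loess offset for transcript length and leaving out animals or libraries. Marker sums were compared by an exact two-sided permutation test over the libraries, which did not use the pairing by animal. The procedure was tested on simulated data. Coordinates are from GENCODE for GRCm38, matched by symbol for all 67 members. CPM are counts scaled by TMM library sizes, except the marker sums, which use library totals. Symbols that a spreadsheet had turned into dates (26 rows) were tested and are not named. Named members were those called, the highest in TPM and the 2 with the smallest p of each class, and a fixed list of 12; other members are given as parts of their class.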

Additional observations from a re-analysis of the deposited data

How the results depend on the processing

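The fit with the animal as a replicate block called 1 member and 426 genes. Without the block it called 0 members and 0 genes, and Kdm6b had a log2 fold change of 0.49 (adjusted p = 0.137). The number of members called was 2 with library totals, and 3 without the low-count filter, with DESeq2 and with the length offset. It was 0 in the 3 limma fits on TPM, with 1 gene called in each, and 987 genes were called without the low-count filter. Leaving out 1 animal or library gave 0 to 2 members and 0 to 976 genes, and without animal 890, 892 or 899 in the blocked fit 385, 248 and 976 genes. Of the 6 unblocked fits with 1 library left out, that without the normal library of animal 899 called 42 genes and the others 0.

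The demethylase median of 0.12 became 0.06 with library totals, 0.07 with the length offset, 0.09 in the 3 limma fits (0.0907 or 0.0933) and 0.0973 to 0.158 with a sample left out. The members' median of 0.04 became −0.0216 with library totals, and the deacetylase median of −0.01 became −0.08 with library totals and −0.08 without animal 890. Kdm6b had 0.47 (adjusted p = 0.0881), 0.48 (0.0853) and 0.47 (0.278) in the limma fits and 0.46 to 0.54 with a sample left out, called in the 3 blocked fits and, among the 6 unblocked ones, only without the normal library of animal 899. Signs turned for Hdac3 with library totals (−0.0184), and in unblocked fits for Hdac3 without the denervated library of animal 890 (−0.0508), Dnmt1 without the normal library of animal 890 (0.00134) and Hdac1 without the normal library of animal 899 (0.0576). With 1 animal left out, Dnmt1 ran from −0.151 to 0.0389, Hdac3 from −0.0761 to 0.141 and Ezh2 from −0.0112 to 0.235, the sign turning without animal 890, 890 and 892. DESeq2 gave no adjusted p for Dnmt3b, Hdac10, Sirt6 and Tet1, and Tet1 was below the minimum of 2 limma fits. The causes were not tested. Tet1 and Sirt5 rest on few counts and differ in sign between animals.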

Other observations

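Deposited estimated and raw counts differed for a few members. Their ratio, summed over all 6 libraries, lay between 0.9 and 1.1 for 58 of the 64 tested members. It was 1.83 for Hdac1, 1.43 for Kdm2b, 1.29 for Setd3, which methylates actin, and 1.11 for Kat2b, and 0.888 for Hdac10 and 0.762 for Setd4. In the annotation, 18 of the tested members overlap another gene of the matrix, 15 of them on the opposite strand, among them Kdm2b and Kat5. Whether reads were counted by strand is not given in the sources used here.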
